A study of Homo sapiens with 12 samples.

Results

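The comparison described here was the response to interferon-γ (IFNγ) in U251 cells transfected with siPDL1-2, one of a pair of small interfering RNAs (siRNAs) directed at *CD274*, the gene of the checkpoint ligand PD-L1. It was read from the 4 siPDL1-2 libraries of the 12 in the series, chosen by their labels alone: 2 unstimulated (siPDL1-2-C) and 2 stimulated with IFNγ (siPDL1-2-IFN). U251, a long-established line of human glioblastoma cells, was of wild-type genotype in every group. The cells were incubated with the siRNA for 48 hours. By the methods of the study IFNγ followed that incubation, and it was given at 100 U/ml for 24 hours. The unstimulated cells were transfected in the same way. The other 8 libraries held the same pair of conditions with a control siRNA (siNC-C and siNC-IFN) and with the second *CD274* siRNA (siPDL1-1-C and siPDL1-1-IFN), 2 libraries each. Poly(A) RNA was sequenced. The methods of the study give the pair of libraries in each group as independent experiments. Each condition thus rested on 1 cell line and 1 siRNA sequence, with silencing that was transient.

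IFNγ binds a receptor of paired IFNGR1 and IFNGR2 chains, which bring together the kinases JAK1 and JAK2. The signal reaches primary target genes such as *IRF1* through the GAS motif in their promoters. IRF proteins, and complexes of STAT2 and IRF9 that type I interferons activate more strongly, bind the ISRE motif. In tumor cells the pathway is known for raising antigen presentation and T cell-attracting chemokines together with immunosuppressive genes, PD-L1 among them.

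The siPDL1-2 libraries held between 17101069 and 40278923 reads assigned to genes (17101069 to 55657393 over the 12 libraries), so that 1 read was worth 0.0240 to 0.0586 CPM, the unit of the authors' normalized values, in which a read count is set against the size of its library. The shallowest of the 12 was siPDL1-2-IFN replicate 1. Of 11 astrocytic and glioma markers, 10 were at or above 1 CPM in the 4 siPDL1-2 libraries, with summed levels of 4801 to 4839 CPM unstimulated and 4942 to 5105 CPM with IFNγ. The higher sum came with *VIM*, which went from 3417 and 3444 to 3819 and 3968 CPM, whereas *CD44* went from 669 and 665 to 473 and 463 CPM. None of 7 lymphocyte markers reached 1 CPM and 4 of them had no read in the 4 libraries. The leukocyte marker *PTPRC* stayed under 1 CPM as well, and of 5 myeloid markers *CSF1R* alone passed 1 CPM, the summed level of the list being 1.13 to 1.22 CPM unstimulated and 0.704 to 0.793 CPM with IFNγ. Of 3 neuronal, 3 endothelial and 4 epithelial markers, *SYT1* and *SLC17A7*, *VWF* and *CDH5*, and *KRT8* and *KRT18* reached 1 CPM in a library, with sums of 5.92 to 7.36, 2.23 to 5.31 and 96.2 to 108 CPM.

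The targeted gene was examined first. Unstimulated *CD274* (chr9:5450503-5470566 in GRCh38) was 4.60 and 4.91 CPM with siNC, 2.67 and 2.73 CPM with siPDL1-1 and 3.57 and 3.45 CPM with siPDL1-2. After IFNγ it was 71.2 and 76.0 CPM with siNC, 60.9 and 66.7 CPM with siPDL1-1 and 37.5 and 35.0 CPM with siPDL1-2. In both conditions the siPDL1-2 libraries lay below the siNC libraries without overlap, and after IFNγ they were the lowest of the 3 siRNAs. *CD274* nevertheless rose 10.3-fold with siPDL1-2 (log2 fold change 3.05, SE 0.0762, FDR = 6.73e-14). Here and below, the log2 fold change was taken on log2(CPM + 1), the FDR is the Benjamini-Hochberg adjusted p of limma over all genes tested, and a gene was called at an FDR below 0.01 with a fold change above 1.5. The siPDL1-2 response was lower than that with siNC by a log2 difference of -0.65 (SE 0.108, FDR = 5.37e-04) and lower than that with siPDL1-1 by -1.08 (SE 0.108, FDR = 9.83e-06). The first of these was no longer called with edgeR or DESeq2, nor with GC and length trends removed, where it was -0.35 with FDR = 0.0185.

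IFNγ raised 651 genes and lowered 296 genes with siPDL1-2, which was 3.62% and 1.65% of the 17982 genes tested. The median log2 fold change of all genes tested was -0.01 after a scaling that centers most genes near 0, so a shift common to all genes would not show in these values. The increases were larger than the decreases. Of the 651 genes that rose, 293 changed by more than 2-fold, 122 by more than 4-fold, 59 by more than 8-fold and 30 by more than 16-fold, whereas of the 296 that fell, 44 changed by more than 2-fold and 2 by more than 4-fold. The genes that rose took 1.88% and 1.89% of all normalized values in the unstimulated libraries and 5.29% and 5.34% after IFNγ. Protein-coding genes made up 600 of them and long noncoding RNAs 48. Among the genes that rose, 39 had been at or below 0.1 CPM, 91 between 0.1 and 1 CPM, and 36 above 100 CPM without IFNγ. The calls were based on groups of 2, and in bulk RNA a change in every cell and a change in the share of cells that express a gene cannot be told apart.

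**Figure D1:**
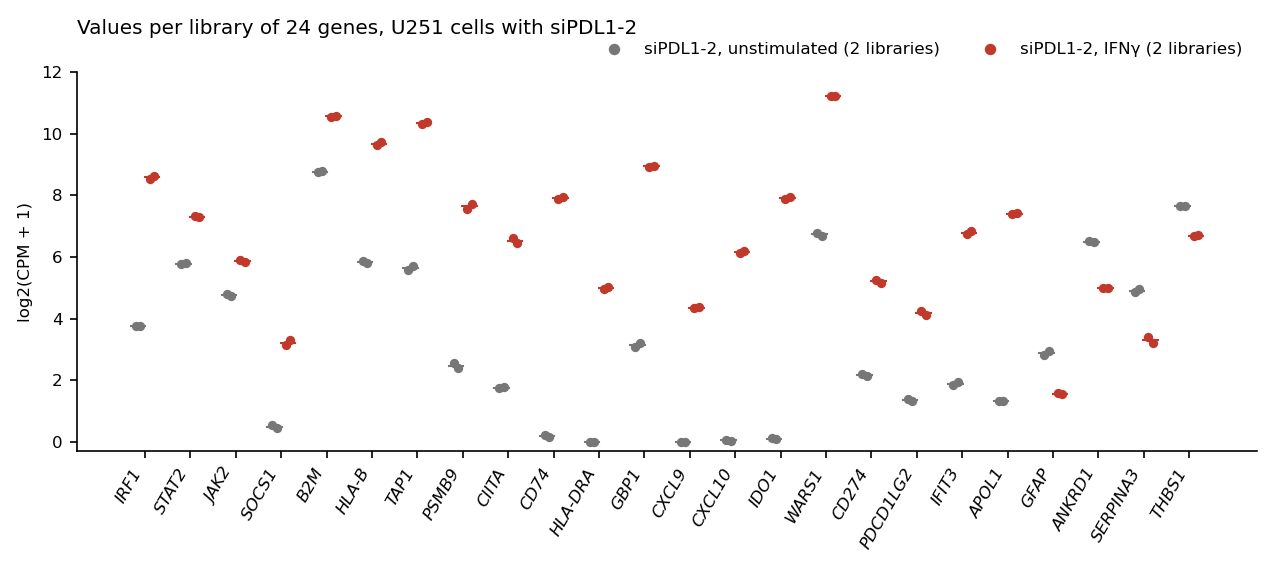
Expression of 24 genes in the 4 libraries with siPDL1-2, as log2(CPM + 1) on the vertical axis. Grey points are the 2 unstimulated libraries and red points the 2 IFNγ libraries, with a line at each mean. All 24 genes had been called, so a gap between the 2 conditions comes with their choice. *CD274* goes from 3.57 and 3.45 CPM to 37.5 and 35.0 CPM, and *GFAP*, *ANKRD1*, *SERPINA3* and *THBS1* lie lower with IFNγ.

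The promoters of the genes that rose held the interferon motifs more often than other promoters. RefSeq promoter sequences (GRCh38.p14, 250 bases before to 50 after the start) were matched to 10483 of the 17982 genes, and searched on both strands for TTCNNNGAA, the GAS motif of primary IFNγ targets, and TTCNNTTTC, the core of the ISRE bound by IRF proteins and complexes of STAT2 and IRF9. These motifs can overlap each other, and a match is a run of letters, not a measured site. Either motif was present in 11.8% of all 10483 promoters (95% Wilson interval 11.2 to 12.4%), 30.4% of 395 promoters of genes that rose (26.1 to 35.1%) and 11.4% of 158 promoters of genes that fell (7.33 to 17.3%). The share went with the size of the increase. It was 60.9% for 69 genes that rose more than 4-fold (49.1 to 71.5%), 34.3% for 99 that rose 2- to 4-fold, and 19.4% for 227 that rose less than 2-fold. With the ISRE core alone the share was 53.6% for the genes that rose more than 4-fold against 6.29% of all promoters, and with GAS alone 21.7% against 6.05%. In the 150 bases before the start alone, either motif was in 16.5% of promoters of genes that rose, 5.76% of all and 3.16% of those of genes that fell.

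Stretches of 8 of these promoters are shown because their genes represent the roles described below, and each is read 5′ to 3′ along the gene with the matched motifs in capitals. They are *IRF1* (chr5:132490874-132490912, minus strand), *CD274* (chr9:5450320-5450440, plus strand), *B2M* (chr15:44711358-44711402, plus strand), *TAP1* (chr6:32853808-32853852, minus strand), *CXCL10* (chr4:76023695-76023733, minus strand), *GBP1* (chr1:89065311-89065349, minus strand), *IFIT3* (chr10:89327827-89327899, plus strand) and *SOCS1* (chr16:11256294-11256332, minus strand).
IRF1: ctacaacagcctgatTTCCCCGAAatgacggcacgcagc
CD274: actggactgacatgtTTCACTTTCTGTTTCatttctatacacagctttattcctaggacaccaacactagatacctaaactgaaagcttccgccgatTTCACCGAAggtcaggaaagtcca
B2M: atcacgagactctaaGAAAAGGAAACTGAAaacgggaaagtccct
TAP1: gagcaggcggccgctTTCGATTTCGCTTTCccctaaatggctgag
CXCL10: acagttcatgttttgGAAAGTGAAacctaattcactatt
GBP1: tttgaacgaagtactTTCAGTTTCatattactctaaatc
IFIT3: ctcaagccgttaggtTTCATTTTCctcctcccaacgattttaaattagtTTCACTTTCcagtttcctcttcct
SOCS1: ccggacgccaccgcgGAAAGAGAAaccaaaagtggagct
The *IRF1* stretch held a GAS match that began at -124 from the start and no ISRE core. The *CD274* stretch held both kinds, with overlapping ISRE cores at -207 and -201 and a GAS match at -125. The *B2M* and *TAP1* stretches held overlapping pairs of ISRE cores, those of *B2M* on the opposite strand. *IFIT3* carried ISRE cores at -155 and -121, and *CXCL10*, *GBP1* and *SOCS1* a single ISRE core each.

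**Figure D2:**
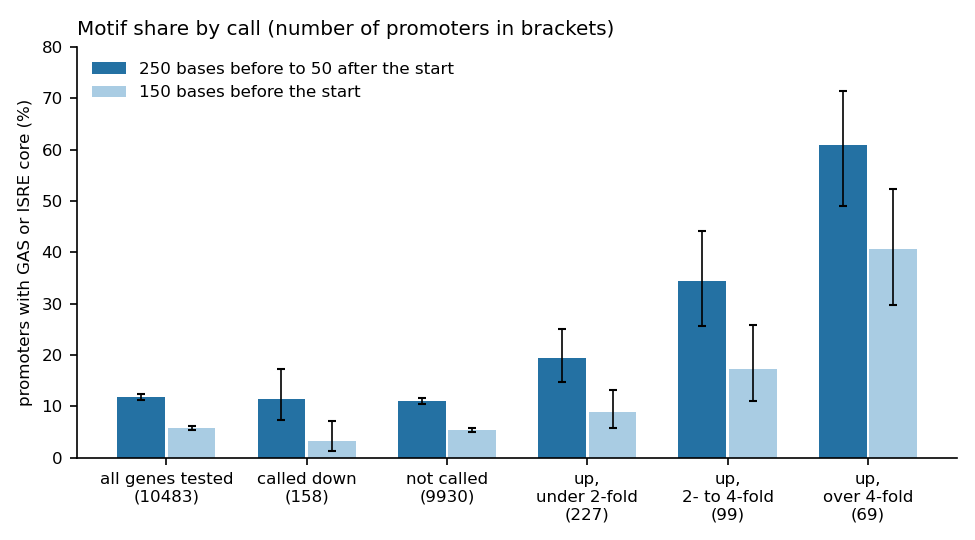
Percent of promoters that held a GAS or ISRE-core match, for all genes tested, genes not called, genes that fell and genes that rose in 3 ranges of fold change, in the whole window and in the 150 bases before the start. Bars show the 95% Wilson interval, which covers counting error only. The share was 60.9% for genes that rose more than 4-fold and 11.8% for all promoters in the whole window.

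Of 14 genes of the receptor, JAK, STAT and feedback list, 6 rose, none fell and 8 were not called, with a median log2 fold change of 0.26 against -0.01 for all genes tested. Here and in the lists below, the counts stand against 3.62% called higher and 1.65% called lower over all genes tested. In lists this short, a count of none lower is near that share. *STAT2*, the partner of IRF9, was 53.5 and 54.8 CPM in siPDL1-2-C and 161 and 155 CPM in siPDL1-2-IFN (log2 fold change 1.53, SE 0.0488, FDR = 1.89e-12). Its siPDL1-2-IFN libraries were above the unstimulated ones, without overlap. *JAK2*, the kinase attached to IFNGR2, was 26.6 and 25.9 CPM in siPDL1-2-C and 58.2 and 56.4 CPM in siPDL1-2-IFN, a 2.19-fold increase (log2 fold change 1.0996, SE 0.0719, FDR = 1.58e-08). With siNC it went from 13.95 and 15.5 to 61.3 and 65.1 CPM and with siPDL1-1 from 23.3 and 21.3 to 94.9 and 108 CPM. The increase with siPDL1-2 was smaller than both, by -0.93 (SE 0.102, FDR = 4.29e-05) and -1.03 (SE 0.102, FDR = 9.01e-06), and started from a higher unstimulated level than with siNC, but neither difference was called with GC and length trends removed (-0.32 and -0.55).

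Of the feedback inhibitors in that list *SOCS1*, *SOCS3* and *USP18* rose, and *SOCS2*, *CISH*, *PTPN2* and *PIAS1* were not called. *SOCS1*, which blocks JAK kinases, was 0.455 and 0.366 CPM in siPDL1-2-C and 7.86 and 8.79 CPM in siPDL1-2-IFN (log2 fold change 2.72, SE 0.117, FDR = 7.81e-11). *SOCS3* was 52.4 and 52.0 CPM in siPDL1-2-C and 88.2 and 92.9 CPM in siPDL1-2-IFN, a 1.74-fold increase. *USP18*, the protease that removes ISG15 and dampens type I interferon receptors, was 7.45 and 7.51 CPM in siPDL1-2-C and 16.1 and 15.4 CPM in siPDL1-2-IFN (log2 fold change 0.98, SE 0.0747, FDR = 9.16e-08). Its response with siPDL1-1 was far larger, from 8.85 and 7.93 to 118 and 115 CPM, and the difference was -2.67 (SE 0.106, FDR = 3.90e-10). The *SOCS1* difference from siPDL1-1, -1.35 (SE 0.166, FDR = 7.50e-05), was not called with edgeR or DESeq2. The receptor chain *IFNGR1* went from 86.7 and 87.3 to 68.3 and 63.4 CPM, below the 1.5-fold threshold (log2 fold change -0.40, SE 0.0551, FDR = 6.89e-05).

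Among interferon regulatory factors, 9 in the table and 6 tested, 4 rose (*IRF1*, *IRF2*, *IRF3* and *IRF9*), none fell, and *IRF5* and *IRF7* were not called. *IRF1*, a primary target whose promoter held the GAS match shown above, was 12.6 and 12.5 CPM in siPDL1-2-C and 369 and 396 CPM in siPDL1-2-IFN, a 30.6-fold increase (log2 fold change 4.83, SE 0.0712, FDR = 3.08e-16). Its libraries were 2 tight pairs. The difference of this response from siNC was -0.02 (SE 0.101, FDR = 0.903) and from siPDL1-1 0.39 (SE 0.101, FDR = 0.0134), neither called. *IRF9*, the DNA-binding partner of STAT2, rose 3.63-fold, *IRF2* 1.92-fold and *IRF3* 1.69-fold.

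Class I antigen presentation rose, with 13 of 16 members tested called higher, none lower, and a median log2 fold change of 2.07. *HLA-B*, a heavy chain that shows peptides to CD8 T cells, was 57.7 and 54.8 CPM in siPDL1-2-C and 794 and 842 CPM in siPDL1-2-IFN (log2 fold change 3.84, SE 0.0496, FDR = 2.42e-17). *HLA-C* rose 3.98-fold, *HLA-E* 7.42-fold and *HLA-F* 7.97-fold. HLA genes share long stretches of sequence and reads with up to 10 hits were kept, so the split between them is uncertain. *B2M*, the light chain common to class I molecules, was 435 and 438 CPM in siPDL1-2-C and 1502 and 1515 CPM in siPDL1-2-IFN (log2 fold change 1.79, SE 0.0443, FDR = 6.05e-14). *NLRC5*, the class I transactivator, was 16.4 and 15.02 CPM in siPDL1-2-C and 181 and 175 CPM in siPDL1-2-IFN (log2 fold change 3.42, SE 0.0748, FDR = 2.77e-14).

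The peptide transporter chain *TAP1* was 47.2 and 50.8 CPM in siPDL1-2-C and 1257 and 1315 CPM in siPDL1-2-IFN (log2 fold change 4.69, SE 0.0532, FDR = 4.52e-18), and its partner *TAP2* was 72.5 and 72.3 CPM in siPDL1-2-C and 442 and 448 CPM in siPDL1-2-IFN (log2 fold change 2.60, SE 0.0527, FDR = 5.53e-15). Both transporter genes had a pair of high and a pair of low libraries. The loading factor *TAPBP* rose 2.59-fold and its relative *TAPBPL* 6.31-fold, and the peptide-trimming enzymes *ERAP1* and *ERAP2* rose 3.51-fold and 4.52-fold. The general chaperones *CALR*, *CANX* and *PDIA3* were not called. The difference of the *TAP2* response from that with siPDL1-1 was -0.66 (SE 0.0745, FDR = 3.04e-05), and it was the one called difference of the class I list against either siRNA. Over all genes tested 4.32% were called lower than with siPDL1-1 and 5.78% lower than with siNC.

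The immunoproteasome, whose subunits replace constitutive ones and favor peptides that class I molecules hold, rose in 5 of 5 members with a median of 2.69. *PSMB9* was 4.89 and 4.21 CPM in siPDL1-2-C and 189 and 211 CPM in siPDL1-2-IFN, a 43.99-fold increase (log2 fold change 5.18, SE 0.0716, FDR = 5.14e-17). *PSMB10* rose 11.4-fold, *PSMB8* 6.64-fold, and the activator subunits *PSME1* and *PSME2* 3.51-fold and 4.95-fold. Of 15 constitutive proteasome genes, 6 rose and none fell, with a median of 0.40. *PSMA5*, for example, was 115 and 114 CPM in siPDL1-2-C and 205 and 219 CPM in siPDL1-2-IFN, and *PSMB2* was 196 and 197 CPM in siPDL1-2-C and 294 and 304 CPM in siPDL1-2-IFN, an increase that fell to 0.58 and was no longer called without siPDL1-2-IFN replicate 2. *PSMB9* overlaps *TAP1* and *PSMB8*, which lie on the strand opposite to it, and counting was on both strands, so reads of *PSMB9* cannot be fully told apart from those of either.

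Class II antigen presentation, usually confined to professional antigen-presenting cells, rose in 14 of 14 members tested, with a median of 3.40. *HLA-DQA1* did not pass the filter on low reads. In siPDL1-2-C *HLA-DRA* and *HLA-DOA* had 0 reads and *HLA-DRB5* had 1. Of the siPDL1-2 libraries, only the stimulated ones could carry these genes past the filter, which favors a call higher. Since many members were near 0 without IFNγ, the median depended on the pseudocount and was 4.97 with 0.1. *CIITA*, the class II master transactivator, was 2.35 and 2.41 CPM in siPDL1-2-C and 96.6 and 86.5 CPM in siPDL1-2-IFN (log2 fold change 4.77, SE 0.0932, FDR = 3.37e-15). *CD74*, the invariant chain, was 0.168 and 0.122 CPM in siPDL1-2-C and 235 and 248 CPM in siPDL1-2-IFN (log2 fold change 7.73, SE 0.0760, FDR = 8.98e-19). *HLA-DRA* had no read in either unstimulated library and was 30.3 and 31.4 CPM with IFNγ, at least 377-fold higher when the unstimulated pair was set to a floor of 3 reads. *HLA-DPA1* was 0.911 and 0.916 CPM in siPDL1-2-C and 33.8 and 33.3 CPM in siPDL1-2-IFN, *HLA-DMB*, which exchanges peptides, was 0.240 and 0.0916 CPM in siPDL1-2-C and 23.3 and 25.5 CPM in siPDL1-2-IFN, and *HLA-DRB1* was 0.383 and 0.763 CPM in siPDL1-2-C and 17.2 and 22.01 CPM in siPDL1-2-IFN. The lysosomal thiol reductase *IFI30* was 30.9 and 32.7 CPM in siPDL1-2-C and 205 and 195 CPM in siPDL1-2-IFN. None of the 14 members had a called difference of the response from siNC or from siPDL1-1. Over all genes tested 1.84% were called higher and 5.78% lower than with siNC, and 0.551% and 4.32% than with siPDL1-1. A count of none in so short a list is near these shares.

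**Figure D3:**
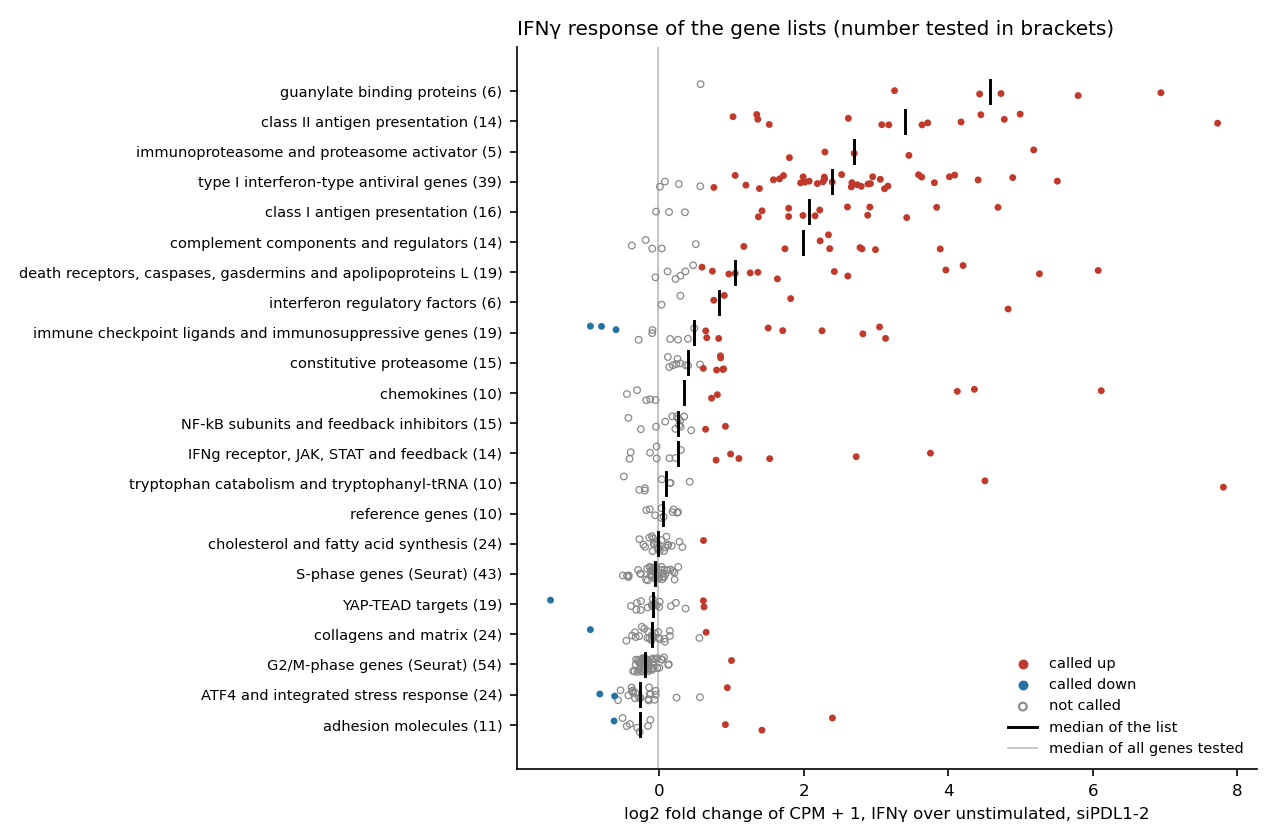
Log2 fold change of CPM + 1 with IFNγ in siPDL1-2 cells for the tested members of each gene list, with the number tested in brackets. Red points were called up, blue points called down and open points were not called, black bars mark the median of each list and the grey line that of all genes tested. Guanylate binding proteins (median 4.58), class II (3.40) and the immunoproteasome (2.69) lie farthest to the right, and the S-phase list (-0.06) lies at the grey line.

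Guanylate binding proteins, GTPases that act against intracellular pathogens, rose in 5 of 6 members tested, with a median of 4.58, and *GBP6* was not called. *GBP1* was 7.48 and 8.18 CPM in siPDL1-2-C and 486 and 492 CPM in siPDL1-2-IFN (log2 fold change 5.80, SE 0.0573, FDR = 8.98e-19). *GBP5* was 66.5 and 67.4 CPM in siPDL1-2-C and 1833 and 1768 CPM in siPDL1-2-IFN (log2 fold change 4.73, SE 0.0372, FDR = 1.06e-19), *GBP2* 23.9 and 23.3 CPM in siPDL1-2-C and 533 and 528 CPM in siPDL1-2-IFN, and *GBP3* 18.4 and 19.4 CPM in siPDL1-2-C and 191 and 187 CPM in siPDL1-2-IFN. *GBP4* went from 0.192 and 0.0610 to 144 and 131 CPM. With siNC *GBP5* reached 2705 and 2778 CPM, *GBP4* 221 and 227 CPM and *GBP3* 249 and 253 CPM, all above the siPDL1-2-IFN libraries. The differences of the responses from siNC were -0.70 (SE 0.0526, FDR = 4.66e-06), -0.80 (SE 0.116, FDR = 2.04e-04) and -0.65 (SE 0.0790, FDR = 7.05e-05) for *GBP5*, *GBP4* and *GBP3*. With GC and length trends removed they were -0.33, -0.54 and -0.41 (FDR 8.68e-06 to 0.00139), under the 1.5-fold threshold, and none of the 3 was called. With edgeR and DESeq2 the *GBP4* difference was larger, -2.04 and -2.09, but did not pass (FDR = 0.0635 and 0.0718). Against siPDL1-1 the *GBP3* difference was -0.65 and the *GBP4* difference -0.73, both likewise not called with the trends removed. That of *GBP4* was also not called with edgeR (FDR = 0.400), DESeq2 (FDR = 0.401) or a pseudocount of 0.1 (FDR = 0.117).

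Of 17 chemokine genes, 7 did not pass the filter on low reads. Of the 10 tested, 5 rose and none fell, where 3.62% of all genes tested were called higher and 1.65% lower. Among those that rose, *CXCL9*, *CXCL10* and *CXCL11*, the ligands of the T cell receptor CXCR3, were absent or nearly absent without IFNγ. Of the siPDL1-2 libraries, only the stimulated ones could carry these ligands past the filter, which favors a call higher. *CXCL9* had no read in siPDL1-2-C and was 19.4 and 19.7 CPM in siPDL1-2-IFN, at least 239-fold higher. *CXCL10* was 0.0479 and 0.0305 CPM, 3 reads in all, and 69.7 and 72.5 CPM with IFNγ, a ratio of 1775 with an exact counting interval of 607 to 8613. *CXCL11* had no read unstimulated and 17.2 and 15.6 CPM with IFNγ, at least 201-fold higher.

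The stimulated levels of the 3 ligands were lower with siPDL1-2 than with the other siRNAs, without overlap of the libraries. *CXCL10* reached 285 and 309 CPM with siNC and 226 and 261 CPM with siPDL1-1, *CXCL11* 61.7 and 67.2 and 25.03 and 32.5 CPM, and *CXCL9* 39.8 and 37.6 and 27.7 and 30.8 CPM. On log2(CPM + 1) the responses were lower than with siNC by -2.05 (SE 0.121, FDR = 2.99e-07) for *CXCL10*, -1.89 (SE 0.169, FDR = 2.27e-05) for *CXCL11* and -0.95 (SE 0.139, FDR = 2.19e-04) for *CXCL9*. Because the unstimulated counts were 0 to 3 reads, the fold changes themselves could not be compared. With edgeR and DESeq2 none of these differences was called. That of *CXCL10* was still -1.74 and -1.71 there (FDR = 0.382 and 0.262), that of *CXCL9* was -0.98 and -0.56, and that of *CXCL11* turned to 0.54 with edgeR and was -0.15 with DESeq2. Against siPDL1-1 the *CXCL10* difference was -1.70 and the *CXCL11* difference -0.73, the latter lost on leaving out any of 7 of the 8 libraries (-0.55 to -0.79) and turned to 1.58 with DESeq2 and 2.23 with edgeR. The membrane-bound chemokines *CXCL16* and *CX3CL1* rose 1.67-fold and 1.77-fold. *CCL5* was not called with siPDL1-2, at 0.168 and 0.0916 CPM in siPDL1-2-C and 0 and 0.0661 CPM in siPDL1-2-IFN (FDR = 0.458), but went from 0.232 and 0.377 to 12.4 and 13.9 CPM with siPDL1-1, a difference of -3.57 (SE 0.168, FDR = 2.56e-09).

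Of 10 genes of tryptophan catabolism and tryptophanyl-tRNA synthesis tested, *IDO1* and *WARS1* rose and the other 8 were not called, with a median of 0.09. *IDO1*, the first enzyme of the kynurenine route and a suppressor of T cells, was 0.0958 and 0.0610 CPM in siPDL1-2-C and 237 and 244 CPM in siPDL1-2-IFN (log2 fold change 7.81, SE 0.0693, FDR = 3.67e-19), the largest increase on this scale. With siNC it reached 508 and 516 CPM and with siPDL1-1 243 and 233 CPM. The difference of the response from siNC was -0.998 (SE 0.0980, FDR = 3.20e-05), not called with edgeR, DESeq2 or a pseudocount of 0.1. *WARS1*, the tryptophanyl-tRNA synthetase, was 108 and 102 CPM in siPDL1-2-C and 2406 and 2413 CPM in siPDL1-2-IFN (log2 fold change 4.51, SE 0.0357, FDR = 1.06e-19).

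Of 19 checkpoint ligands and other immunosuppressive genes tested, 9 rose and 3 fell, with a median of 0.48. Over all genes tested the shares were 3.62% higher and 1.65% lower. *PDCD1LG2*, the second PD-1 ligand PD-L2 and a neighbor of *CD274* on chromosome 9, was 1.65 and 1.53 CPM in siPDL1-2-C and 18.2 and 16.3 CPM in siPDL1-2-IFN (log2 fold change 2.82, SE 0.0958, FDR = 4.10e-12). *TNFRSF14*, the ligand of BTLA, was 3.43 and 4.36 CPM in siPDL1-2-C and 39.5 and 43.9 CPM in siPDL1-2-IFN, and *LGALS9*, the TIM-3 ligand galectin-9, was 7.07 and 7.48 CPM in siPDL1-2-C and 35.7 and 41.3 CPM in siPDL1-2-IFN. These 3 rose 10.9-fold, 10.7-fold and 5.29-fold. *CSF1*, the macrophage growth factor, rose 2.86-fold, the death receptor *FAS* 3.59-fold, and the ectoenzyme *NT5E* 1.59-fold. *CD47*, which signals against phagocytosis, was 51.1 and 51.1 CPM in siPDL1-2-C and 92.3 and 89.5 CPM in siPDL1-2-IFN (log2 fold change 0.82, SE 0.0539, FDR = 1.67e-08). With siNC it went from 36.3 and 36.1 to 116 and 124 CPM, a larger response (difference -0.88 (SE 0.0762, FDR = 1.86e-05)), and the difference from siPDL1-1 was -0.76 (SE 0.0762, FDR = 1.04e-05). Neither was called with GC and length trends removed (both -0.31).

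The 3 genes of that list that fell were *VTCN1*, the ligand B7-H4, from 1.75 and 1.53 to 0.352 and 0.364 CPM, *TGFB2* from 30.6 and 32.9 to 19.9 and 15.9 CPM, and *ARG2* from 44.4 and 48.3 to 30.3 and 30.1 CPM. *ARG2* was not called without siPDL1-2-C replicate 2 (-0.54). *NOS2*, the inducible nitric oxide synthase, was low at 0.839 and 0.824 CPM in siPDL1-2-C and 2.11 and 1.62 CPM in siPDL1-2-IFN (log2 fold change 0.64, SE 0.129, FDR = 0.00181) and was not called without siPDL1-2-C replicate 1, siPDL1-2-C replicate 2 or siPDL1-2-IFN replicate 1, where the FDR was 0.0162 to 0.0220. *CD276*, *PVR*, *NECTIN2*, *TGFB1* and *VEGFA* were among the 7 not called.

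Genes usually grouped with type I interferon rose in 35 of 39 cases, with a median of 2.39. *IFIT3*, whose product binds IFIT1 in an antiviral complex, was 2.61 and 2.81 CPM in siPDL1-2-C and 105 and 113 CPM in siPDL1-2-IFN (log2 fold change 4.89, SE 0.0692, FDR = 5.98e-17). *XAF1*, which favors apoptosis, was 0.120 and 0.122 CPM in siPDL1-2-C and 50.8 and 49.2 CPM in siPDL1-2-IFN, and *OAS2*, a sensor that makes 2-5A from double-stranded RNA, was 0.144 and 0.183 CPM in siPDL1-2-C and 24.98 and 22.6 CPM in siPDL1-2-IFN. *BST2*, which tethers budding virions, went from 14.8 and 16.2 to 192 and 202 CPM, the ISG15-conjugating enzyme *UBE2L6* from 18.3 and 19.2 to 239 and 248 CPM, *TRIM22* from 6.23 and 8.06 to 139 and 134 CPM and *PARP14* from 117 and 113 to 822 and 779.9 CPM. The increase was smaller for *IFITM1*, at 3.30-fold, and the 4 not called were *IFITM2*, *MX1*, *HERC5* and *HERC6*. *ADAR*, the RNA-editing enzyme, was not in this list and rose 2.01-fold.

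In these antiviral genes the siPDL1-2 response was close in median to that with siNC (2.42) and below that with siPDL1-1 (4.34). The response was called lower than with siPDL1-1 for 33 of the 39, where 4.32% of all genes tested were called lower, and for 33 as well with GC and length trends removed. *MX2*, a restriction factor of the dynamin family, was 0.359 and 0.214 CPM in siPDL1-2-C and 5.51 and 5.98 CPM in siPDL1-2-IFN, but 1.25 and 1.18 and 144 and 138 CPM with siPDL1-1, a difference of -3.61 (SE 0.163, FDR = 1.73e-09). *DDX58*, which encodes the RNA sensor RIG-I, was 13.6 and 13.6 CPM in siPDL1-2-C and 44.4 and 41.0 CPM in siPDL1-2-IFN and 402 and 404 CPM after IFNγ with siPDL1-1, a difference of -2.85 (SE 0.0905, FDR = 5.23e-11). *IFIT1* was 7.76 and 7.32 CPM in siPDL1-2-C and 34.2 and 35.6 CPM in siPDL1-2-IFN and 581 and 613 CPM in siPDL1-1-IFN, with a difference of -2.82, and *IFIT2* differed by -2.78. The siPDL1-1-IFN libraries were above the siPDL1-2-IFN libraries for each of these genes.

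The differences from siPDL1-1 were -3.42 for *RSAD2*, which encodes viperin, -2.82 for its neighbor *CMPK2*, -2.71 for *OASL*, -2.68 for *SAMD9*, -2.67 for *OAS2*, -1.69 for *XAF1*, -1.55 for *IFI6*, -1.47 for *IFIT3* and -1.43 for *ISG15*. Those of *RSAD2*, *OAS2*, *OASL* and *XAF1* were not called with edgeR or DESeq2, where *XAF1* kept a difference of -1.40 and -1.38 and *OASL* one of -1.08 and -1.05, and *RSAD2* and *OAS2* went to between -0.50 and -0.86. Without IFNγ *RSAD2*, *OAS2* and *OASL* were higher with siPDL1-1 as well, and *OAS2* was 1.48 and 2.02 CPM in siPDL1-1-C and 372 and 368 CPM in siPDL1-1-IFN. *STAT2* also responded less than with siPDL1-1 (-1.09 (SE 0.0690, FDR = 6.27e-08)). Against siNC 1 of the 39 was called higher, *IFI6*, at 0.87 (SE 0.123, FDR = 2.60e-04), and 1 was called lower, *IFIT2*, where 1.84% of all genes tested were called higher and 5.78% lower.

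**Figure D4:**
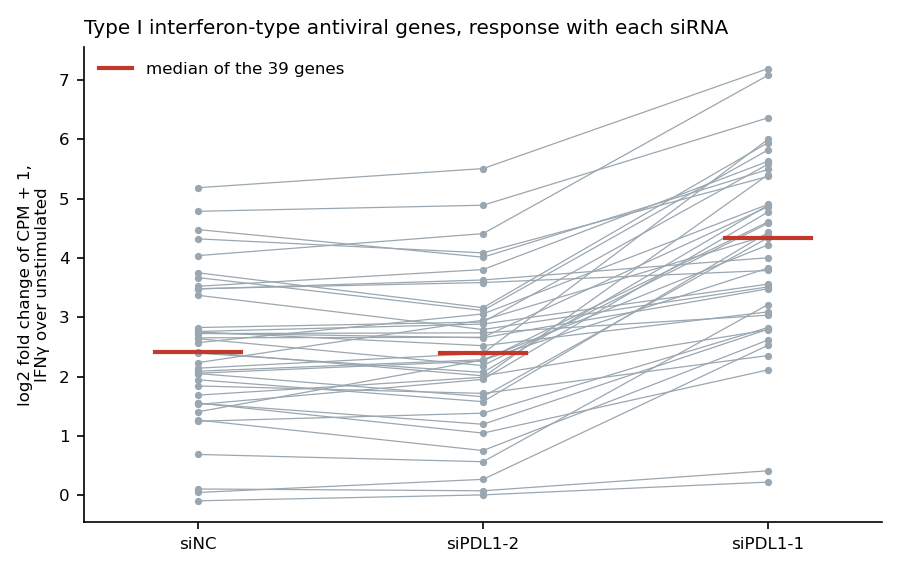
Log2 fold change of CPM + 1 with IFNγ for the 39 antiviral genes with siNC, siPDL1-2 and siPDL1-1, 1 grey line per gene and a red bar at each median. The medians are 2.42 with siNC, 2.39 with siPDL1-2 and 4.34 with siPDL1-1.

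Complement genes rose in 9 of 14 cases with a median of 1.98. The classical pathway proteases *C1R* and *C1S* went from 10.9 and 10.9 to 53.1 and 56.4 CPM and from 3.86 and 4.97 to 26.8 and 26.4 CPM. The central component *C3* was 36.0 and 35.6 CPM in siPDL1-2-C and 81.3 and 82.0 CPM in siPDL1-2-IFN, factor B (*CFB*) 4.27 and 3.81 CPM in siPDL1-2-C and 39.1 and 39.0 CPM in siPDL1-2-IFN, and the C1 inhibitor *SERPING1* 2.42 and 2.29 CPM in siPDL1-2-C and 46.9 and 50.4 CPM in siPDL1-2-IFN. Of the regulators on the cell surface, *CD46*, *CD55* and *CD59* were not called. Of 19 death receptor, caspase, gasdermin and apolipoprotein L genes tested, 13 rose with a median of 1.05. *APOL1*, a pore-forming protein, was 1.49 and 1.53 CPM in siPDL1-2-C and 166 and 169.8 CPM in siPDL1-2-IFN (log2 fold change 6.07, SE 0.0658, FDR = 2.54e-18), and *APOL3*, *APOL4* and *APOL6* rose to 62.5 and 63.1, 68.2 and 68.3 and 315 and 290.2 CPM. The inflammatory caspases *CASP1* and *CASP4* rose 6.61-fold and 2.63-fold, the apoptotic caspase *CASP8* 1.70-fold, *GSDMD*, the pore-former of pyroptosis, 2.44-fold, and *TNFSF10*, the death ligand TRAIL, 3.29-fold.

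*PLAAT4*, a phospholipase of the HRASLS family, was in none of the lists and was 1.13 and 0.824 CPM in siPDL1-2-C and 131 and 138 CPM in siPDL1-2-IFN, the fifth largest increase (log2 fold change 6.10, SE 0.1004, FDR = 3.97e-16). Of the 651 genes that rose, 514 were in none of the lists. Some of the genes that rose were neighbors on a chromosome. In the MHC, from *HLA-F* to *HLA-DPB1* (chr6:29722775-33089696), 32 of 127 genes tested rose, 25.2% against 3.62% of all genes tested, and none fell. A run of 12 neighboring genes from *HLA-DRA* to *HLA-DMA* (chr6:32439878-32969094) rose by 1.02 to 5.18. Other runs were the 5 GBP genes on chromosome 1 (chr1:89006679-89272804), *CXCL9*, *ART3*, *CXCL10* and *CXCL11* on chromosome 4 (chr4:76001275-76112802), *IFIT2* to *IFIT5* on chromosome 10, *APOL3* to *APOL1* and 4 APOBEC3 genes on chromosome 22. *ART3*, with a mean of 1.04 CPM in the siPDL1-2 libraries, overlaps *CXCL10* (35.6 CPM) and *CXCL11* (8.22 CPM) on the opposite strand. Its reads cannot be told apart from theirs.

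In the other lists no more than 3 genes rose. The share called higher, 3.62% over all genes tested, was 27.3% of adhesion molecules, 13.3% of NF-κB genes, 10.5% of YAP-TEAD targets, 4.17% each of the stress-response, lipid synthesis and matrix lists, and 1.85% of G2/M genes. Of 11 adhesion molecules, 3 rose and 1 fell. *VCAM1*, the endothelial-type ligand of VLA-4, was 11.1 and 10.6 CPM in siPDL1-2-C and 61.4 and 60.8 CPM in siPDL1-2-IFN (log2 fold change 2.39, SE 0.129, FDR = 8.36e-08), while *ICAM1* and *CD40* stayed low, going from 0.359 and 0.122 to 1.17 and 1.49 CPM and from 0.0240 and 0.0305 to 1.88 and 1.62 CPM. *NCAM1* fell from 43.2 and 43.4 to 26.7 and 28.6 CPM and was not called without siPDL1-2-IFN replicate 1 (-0.58). Of 15 NF-κB subunits, inhibitors and targets, *IL6* (1.198 and 1.22 to 2.58 and 3.83 CPM) and *TNFAIP3* (7.24 and 7.94 to 12.6 and 12.1 CPM) rose and 13 were not called. *TNFAIP3* was not called without siPDL1-2-C replicate 1 (0.58).

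Of 43 S-phase genes none was called (median -0.06), and of 54 G2/M genes *PSRC1* alone rose, from 70.6 and 69.2 to 132 and 149 CPM, with a median of -0.20. Of 24 ATF4 and stress-response genes, *CEBPB* rose from 49.1 and 49.9 to 96.1 and 95.7 CPM, and the sestrin gene *SESN2* and the cystine transporter *SLC7A11* fell, from 73.2 and 75.1 to 47.9 and 47.9 CPM and from 305 and 323 to 188 and 166 CPM. The number called in this list was 5 without siPDL1-2-IFN replicate 2. Of 24 genes of cholesterol and fatty acid synthesis *SREBF1* alone was called (331 and 334 to 487 and 528 CPM), and not without siPDL1-2-IFN replicate 2 (0.55). Of 24 collagen and matrix genes *COL6A2* rose from 207 and 206 to 315 and 333 CPM, and *THBS1*, a matrix glycoprotein, fell from 199 and 201 to 101 and 104 CPM (log2 fold change -0.96, SE 0.0385, FDR = 3.14e-11). None of 10 reference genes was called, with a median of 0.04. In so short a list that count is near the shares over all genes tested, 3.62% higher and 1.65% lower.

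Of 19 YAP-TEAD targets, 2 rose and 1 fell. *ANKRD1*, a nuclear ankyrin-repeat protein and a standard YAP target, was 91.2 and 87.8 CPM in siPDL1-2-C and 30.6 and 31.1 CPM in siPDL1-2-IFN, a decrease to 0.344 of its unstimulated level (log2 fold change -1.51, SE 0.0587, FDR = 2.07e-11). *GADD45B* and *TEAD4* rose to 34.9 and 36.6 and 21.8 and 23.8 CPM. *GADD45B* was not called without siPDL1-2-IFN replicate 2 (0.58), nor *TEAD4* without that library or siPDL1-2-C replicate 2 (0.55). With GC and length trends removed *ANKRD1* alone of this list was called.

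The largest decreases began with 2 transcripts that span neighboring genes on the same strand, AC139530.2 (8.05 and 10.4 to 0 and 0.760 CPM) and AL035461.3 (11.4 and 10.5 to 1.29 and 0.496 CPM). Neither call was stable, since AC139530.2 was lost without siPDL1-2-C replicate 1, siPDL1-2-C replicate 2 or siPDL1-2-IFN replicate 1 (FDR 0.0177 to 0.0294) and AL035461.3 without any 1 of the 4 libraries (FDR 0.0144 to 0.0406). *SERPINA3*, an acute-phase protease inhibitor, was 27.9 and 29.8 CPM in siPDL1-2-C and 9.68 and 8.20 CPM in siPDL1-2-IFN (log2 fold change -1.59, SE 0.0853, FDR = 1.32e-09). *LMCD1*, a LIM domain cofactor of transcription, was 62.1 and 64.1 CPM in siPDL1-2-C and 21.99 and 20.4 CPM in siPDL1-2-IFN (log2 fold change -1.53, SE 0.0620, FDR = 3.41e-11), and *PI15*, a secreted protease inhibitor, was 177 and 197 CPM in siPDL1-2-C and 70.4 and 59.4 CPM in siPDL1-2-IFN (log2 fold change -1.51, SE 0.174, FDR = 6.02e-04). That both pairs were apart was a condition for naming these genes and is no further result.

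*GFAP*, the astrocyte intermediate filament, was 6.13 and 6.71 CPM in siPDL1-2-C and 1.99 and 1.92 CPM in siPDL1-2-IFN (log2 fold change -1.33, SE 0.104, FDR = 1.28e-07). It also declined with siNC, from 4.21 and 4.48 to 2.58 and 2.39 CPM, by -0.62 on the log2 scale. The decrease with siPDL1-2 was larger by -0.71 (SE 0.147, FDR = 0.00230) than with siNC and by -0.65 (SE 0.147, FDR = 0.00553) than with siPDL1-1. Neither difference was called with DESeq2 (FDR = 0.0252 and 0.0217). The first was not called without siPDL1-2-C replicate 2 (FDR = 0.0162), and the second on leaving out any of 7 of the 8 libraries (FDR 0.0104 to 0.0343). *GASK1B*, which encodes a Golgi-associated kinase-like protein, was 32.6 and 36.1 CPM in siPDL1-2-C and 13.2 and 11.9 CPM in siPDL1-2-IFN (log2 fold change -1.38, SE 0.0872, FDR = 9.73e-09). With siNC it was 15.1 and 13.6 and 13.8 and 13.7 CPM, so that the siPDL1-2 libraries were higher without IFNγ and slightly lower with it, and the difference of the response was -1.33 (SE 0.123, FDR = 2.84e-05). The other large decreases were *RTL3* (-1.45), *RPE65*, the retinoid isomerase (-1.38), *INSYN2B* (-1.33), *PPP1R1B*, which encodes DARPP-32 (-1.30), the ETS factor *EHF* (-1.27), and the noncoding AL590004.3 (-1.60) and AC019117.2 (-1.39).

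The response was next set beside those of the other siRNAs, with which it shared no library. IFNγ raised 1200 genes (6.67%) and lowered 260 (1.45%) with siNC, and raised 1003 (5.58%) and lowered 233 (1.3%) with siPDL1-1. Of the 651 genes that rose with siPDL1-2, 458 were called up with siNC, which was 70.4% of the siPDL1-2 set and 38.2% of the siNC set, and 481 with siPDL1-1 (73.9% and 48.0%). With all 3 siRNAs 437 genes rose and 65 fell. A call in one response and not in another is no test of their difference, so the difference itself was tested.

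The response with siPDL1-2 was higher than with siNC in 330 genes (1.84%) and lower in 1040 (5.78%). Against siPDL1-1 it was higher in 99 (0.551%) and lower in 777 (4.32%). Both differences used the same 4 siPDL1-2 libraries. With DESeq2 size factors the split against siNC was 461 higher and 896 lower. These differences ran with the GC content of the transcripts. The median GC was 65.0% for genes whose response was higher than with siNC and 37.4% for those lower, against 48.7% for all genes tested. Across 14194 genes, which are not independent replicates, Pearson's r of the difference from siNC with GC was 0.711, and that of the siPDL1-2 response alone was 0.224. Differences between replicates of one group ran with GC as well, with r of -0.514 for siNC-IFN, -0.462 for siPDL1-1-IFN and 0.266 for siPDL1-2-IFN. With GC and length trends removed, a step added after the data had been seen, 91 genes were higher and 147 lower than with siNC, and 69 higher and 328 lower than with siPDL1-1. Of the 651 genes that rose with siPDL1-2, 527 were called up with the trends removed too.

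Among the genes whose response was higher than with siNC, *TMEM160*, a mitochondrial membrane protein, was 3.98 and 3.601 CPM in siPDL1-2-C and 11.4 and 12.7 CPM in siPDL1-2-IFN and 4.95 and 7.36 to 5.09 and 3.61 CPM with siNC. The difference was 1.86 (SE 0.215, FDR = 6.17e-05) from siNC and 1.404 (SE 0.215, FDR = 5.10e-04) from siPDL1-1, called under the settings tried. *SOX18*, a transcription factor of vessel development, was 7.02 and 7.39 CPM in siPDL1-2-C and 25.3 and 26.2 CPM in siPDL1-2-IFN, with differences of 1.47 (SE 0.237, FDR = 0.00114) and 1.34. *FEM1A*, a ubiquitin ligase adaptor, was 2.49 and 3.69 CPM in siPDL1-2-C and 7.97 and 8.03 CPM in siPDL1-2-IFN, with differences of 1.42 and 1.26. Against siPDL1-1 the *SOX18* call was lost on leaving out any 1 of the 8 libraries (FDR 0.0102 to 0.0268) and that of *FEM1A* on leaving out any of 6 (FDR 0.0119 to 0.0228). *C4orf48* was 1.80 and 1.98 CPM in siPDL1-2-C and 8.27 and 9.19 CPM in siPDL1-2-IFN, and its response (log2 fold change 1.75, SE 0.296, FDR = 0.00251) was lost without any 1 of the 4 libraries (FDR 0.0126 to 0.0231). Its difference from siNC, 2.58 (SE 0.419, FDR = 0.00219), was lost without siPDL1-2-C replicate 1, siPDL1-2-C replicate 2 or siPDL1-2-IFN replicate 2 (FDR 0.0109 to 0.0117).

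Large differences were also given by a pair of transcripts that overlap several genes on the same strand. AC011511.4 was 7.33 and 5.31 CPM in siPDL1-2-C and 0 and 0 CPM in siPDL1-2-IFN, but 0 and 0 to 5.34 and 14.3 CPM with siNC, a difference of -6.16 (SE 0.852, FDR = 0.00248). AC099329.1 was 0.0240 and 0.794 CPM in siPDL1-2-C and 4.63 and 4.53 CPM in siPDL1-2-IFN, but 11.6 and 12.7 to 3.18 and 3.69 CPM with siNC, with differences of 3.61 (SE 0.626, FDR = 0.00530) from siNC and 3.56 (SE 0.626, FDR = 0.00745) from siPDL1-1. The replicates of single groups were far apart, such as 5.34 and 14.3 CPM for AC011511.4 in siNC-IFN. The calls were lost on leaving out any of 5 libraries for AC011511.4 (FDR 0.0105 to 0.0127), and any of 7 and 6 libraries for AC099329.1 against siNC (FDR 0.0160 to 0.0259) and siPDL1-1 (FDR 0.0110 to 0.0313).

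**Figure D5:**
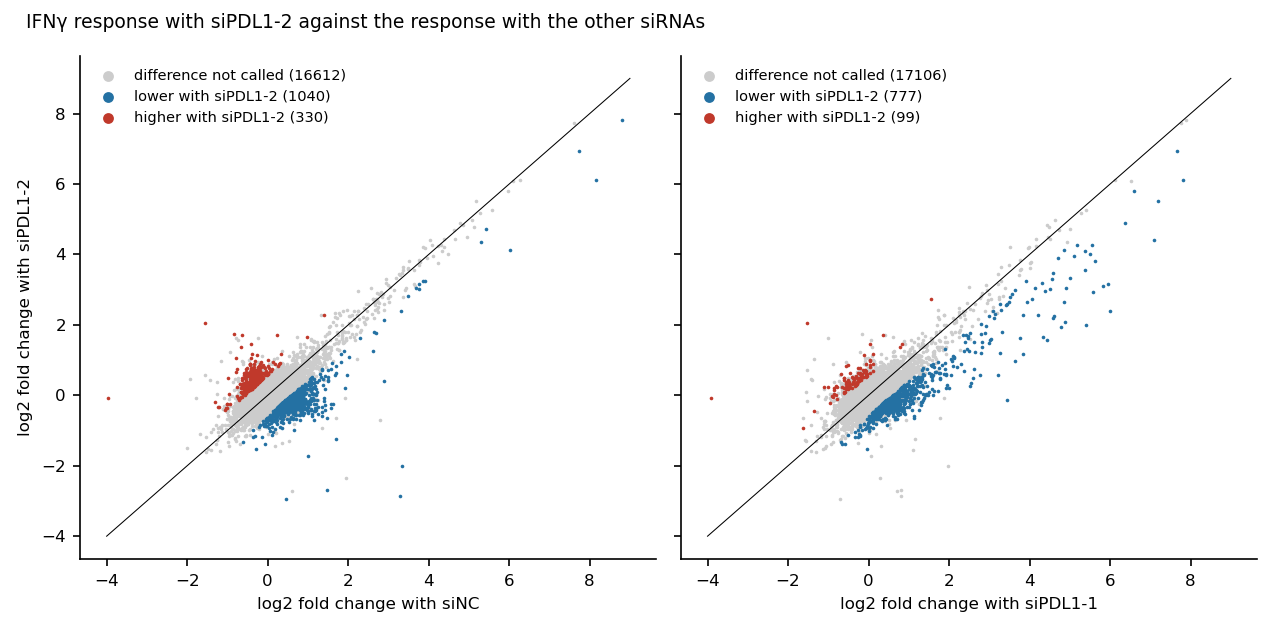
Log2 fold change of CPM + 1 with IFNγ in siPDL1-2 cells (vertical) against that with siNC (left) and siPDL1-1 (right), 1 point per gene of the 17982 tested, with the line of equal response. Red points had a called higher response with siPDL1-2 (330 and 99 genes) and blue points a lower one (1040 and 777), the rest are grey.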

How the data were processed

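Poly(A) RNA of U251 cells was sequenced from stranded libraries. In CLC Genomics Workbench, the authors aligned reads to GRCh38 and counted Ensembl genes with reads of either strand. The deposited values were a normalized CPM signal per gene and library, whose columns differed in sum since a library factor had been applied, equal to that of TMM. Low values were whole multiples of 1 read, and 100% of values gave whole reads within 0.02, so counts were recovered. Of 45416 genes, 17982 passed edgeR's filterByExpr on these reads (minimum count 10, minimum total 15). Genes with few or no unstimulated reads could pass it through stimulated libraries alone, which favors a call higher. Log2(CPM + 1) was fitted in limma 3.58.1 (trend, robust, R 4.3.3) over 12 libraries as 6 groups, and genes were called at FDR below 0.01 and fold change above 1.5. Fold changes in CPM are ratios of group means.

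Alternatives were edgeR 4.0.16 and DESeq2 1.42.0 on the recovered reads, DESeq2 size factors, a pseudocount of 0.1, no filter, other thresholds, the contrast's libraries alone, a replicate block, each library left out, and the removal of GC and length trends, added after the data were seen. In tests on simulated data of 17982 genes, 199 of 200 changes of log2 1.5 were recovered for the response with 1 false call, and 189 of 200 for the difference from siNC with 4. At log2 0.8 the numbers were 153 and 34. The simulated counts had the same dispersion for every gene and no GC or length trend, and changes were planted in genes above 1 CPM. The simulation therefore cannot show how many calls such trends bring about in the real libraries.

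The genes, lists and markers were chosen with earlier results of these data known. Named genes were the list members, the 15 largest increases and decreases, the 8 largest differences in each direction with at least 1 CPM, the 10 highest levels among the genes that rose, and *CD274*. Overlapping genes on opposite strands may share reads, for example *RSAD2* and *CMPK2*, the IFIT genes and *LIPA*, *ERAP1* and *CAST*, *ART3* and both *CXCL10* and *CXCL11*. In mean siPDL1-2 CPM, *GFAP* (4.19) lay below its partner *FAM187A* (9.72) and *FEM1A* (5.55) below AC005523.2 (41.8). Likewise *SOCS1* (4.37) lay below *RMI2* (7.85) and *TAPBPL* (8.02) below *VAMP1* (34.3). *HLA-DOB* (1.65) overlaps AL669918.1 (19.5) on the same strand, and both are in the run from *HLA-DRA* to *HLA-DMA*. The sources differ on the RNA kit and the sequencer. Some genes are not reported here. Intervals and floors cover counting error only.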

Additional observations from a re-analysis of the deposited data

Results flagged for a closer look

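The responses to IFNγ were tested for a difference between siRNAs, and every value given here passed that test of the difference itself at an FDR below 0.01 in limma with a difference above 1.5-fold. The number of genes that passed was 1370 for siPDL1-2 against siNC and 876 for siPDL1-2 against siPDL1-1. Each value below is the log2 fold change with siPDL1-2 minus that with the other siRNA, so that a negative value is a smaller increase or a larger decrease with siPDL1-2.

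In antigen presentation, signaling and checkpoint genes the differences from siNC were -0.65 for *CD274*, -0.93 for *JAK2*, -0.65 for *GBP3*, -0.80 for *GBP4*, -0.70 for *GBP5* and -0.88 for *CD47*. From siPDL1-1 they were -1.08 for *CD274*, -1.03 for *JAK2*, -1.09 for *STAT2*, -1.35 for *SOCS1*, -2.67 for *USP18*, -0.66 for *TAP2*, -0.65 for *GBP3*, -0.73 for *GBP4* and -0.76 for *CD47*. Of these, *CD274* and *USP18* against siPDL1-1, *STAT2* and *TAP2* were called with GC and length trends removed, and the *JAK2*, *CD47*, *GBP3*, *GBP4* and *GBP5* differences were not.

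In genes with few or no reads in unstimulated cells the differences from siNC were -0.95 for *CXCL9*, -2.05 for *CXCL10*, -1.89 for *CXCL11* and -0.998 for *IDO1*, and from siPDL1-1 -1.70 for *CXCL10*, -0.73 for *CXCL11* and -3.57 for *CCL5*. The *CXCL9*, *CXCL10*, *CXCL11* and *IDO1* differences were not called by edgeR or DESeq2, and with a pseudocount of 0.1 those of *IDO1* from siNC and of *CXCL11* from siPDL1-1 were not called either, whereas that of *CCL5* was called under each setting that gave it a value.

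The antiviral genes differed from siPDL1-1 by -3.61 for *MX2*, -3.42 for *RSAD2*, -2.85 for *DDX58*, -2.82 for *CMPK2*, -2.82 for *IFIT1*, -2.78 for *IFIT2*, -1.47 for *IFIT3*, -2.67 for *OAS2*, -2.71 for *OASL*, -2.68 for *SAMD9*, -1.43 for *ISG15*, -1.69 for *XAF1* and -1.55 for *IFI6*. *IFI6* differed from siNC by 0.87, in the other direction.

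Among genes that fell or rose outside the lists, the differences from siNC were -1.33 for *GASK1B*, -0.71 for *GFAP*, 2.58 for *C4orf48*, 1.86 for *TMEM160*, 1.47 for *SOX18*, 1.42 for *FEM1A*, -6.16 for AC011511.4 and 3.61 for AC099329.1, and from siPDL1-1 -0.81 for *GASK1B*, -0.65 for *GFAP*, 1.404 for *TMEM160*, 1.34 for *SOX18*, 1.26 for *FEM1A* and 3.56 for AC099329.1. With GC and length trends removed the *GASK1B* difference from siPDL1-1 was -0.53 and was not called, nor were those of AC099329.1 (3.81 from siNC and 3.62 from siPDL1-1, FDR 0.0143 and 0.0156 in limma) and that of *CXCL11* from siPDL1-1 (-0.15).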

How the results depend on the processing

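The response with siPDL1-2, 947 genes called, counted 876 to 1070 genes under the other tools, scalings, filters and the FDR threshold of 0.05, 791 to 937 with a single library left out, and 337 (293 higher, 44 lower) with a fold change of 2. The list members called, 145, were 143 to 149 under these settings and 110 with a fold change of 2. The share of promoters of genes that rose with either motif was 30.4% and fell to 16.5% with 150 bases before the start, a shorter window. The difference from siNC, 1370 genes, was 263 with a fold change of 2, 238 (91 higher, 147 lower) with GC and length trends removed, and 888 to 1663 with a library left out, the lowest without siPDL1-2-IFN replicate 2. The difference from siPDL1-1, 876 genes, was 204 with a fold change of 2, 397 (69 higher, 328 lower) with the trends removed, and 551 to 1399 with a library left out: 570 without siPDL1-1-C replicate 1, 579 without siPDL1-1-IFN replicate 2, 558 without siPDL1-2-C replicate 2, 551 without siPDL1-2-IFN replicate 2 and 1399 without siPDL1-1-IFN replicate 1. A lone library left in a group was assumed to vary like the other groups.

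Of the genes called different from siNC, 24.1% were higher, against 33.97% (461 higher, 896 lower) with DESeq2 size factors, 33.98% (491 higher, 954 lower) with edgeR, 36.1% (487 higher, 861 lower) with DESeq2 and 38.2% with the trends removed. The *CXCL11* difference reversed, to 0.54 against siNC with edgeR, and against siPDL1-1 to 1.58 with DESeq2 and 2.23 with edgeR. The cause was not tested. Of the named genes, 29 of the responses were not called with a fold change of 2 and 6 with the trends removed (*ARG2*, *TEAD4*, *GADD45B*, *SREBF1*, *COL6A2* and *LGALS3BP*), and no response changed sign. Samples of equal replicate number were not treated as pairs. The deviations of the siPDL1-2 libraries correlated at -0.00646 and those of all 15 pairs of groups at -0.132 to 0.193. Such correlations cannot tell whether samples of equal number came from the same experiment. With the replicate block 942 genes responded, 1326 differed from siNC and 874 from siPDL1-1, and of the named genes 1 response and 1 difference from each siRNA were lost. Depth set the lower limit, 3 reads being 0.0719 to 0.176 CPM in the siPDL1-2 libraries.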

Other observations

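Several other gene families that lie side by side rose as runs of neighboring genes. As above, runs were read among tested protein-coding genes with a group mean of at least 1 CPM. Other tested genes that were not called may lie between the members. The APOBEC3 cytidine deaminases, which edit viral DNA, rose in a run of 4 genes from *APOBEC3C* to *APOBEC3G* on chromosome 22 with log2 fold changes of 0.66 to 3.05. The nuclear body proteins from *SP110* to *SP100* on chromosome 2 rose by 0.63 to 1.70, also 4 genes. The butyrophilins *BTN3A2*, *BTN2A2*, *BTN3A1* and *BTN3A3* on chromosome 6 rose by 0.61 to 2.44. Runs of 3 genes were *OAS1*, *OAS3* and *OAS2* on chromosome 12 (2.26 to 4.41), *SLFN11*, *SLFN12* and *SLFN13* on chromosome 17 (0.64 to 1.03), *CASP4*, *CASP1* and *CARD16* on chromosome 11 (1.36 to 2.42), and *SCO2*, *TYMP* and *ODF3B* on chromosome 22 (1.37 to 1.53), in which *TYMP* is the thymidine phosphorylase. By chromosome, the share of tested genes that rose was 6.70% on chromosome 6, 5.43% on chromosome 22 and 5.26% on chromosome 19, against 3.62% over all genes. These runs were picked after their values were seen, and genes of one family share sequence, so that reads may be split between them.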
